A study of Mus musculus with 7 samples.

Results

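The genes described here are the mouse Wnt ligands, their Frizzled receptors and 2 families of secreted antagonists, taken as every gene whose name in the scanner files is Wnt, Fzd, Sfrp or Dkk followed by a digit. The rule found 37 of the 27578 genes and unnamed probes on the array, which were 19 Wnt, 10 Fzd, 4 Sfrp and 4 Dkk genes. No measured value entered the rule. A gene was tested if the scanner marked its probe as well above background throughout 1 group or more, and 29 of the 37 passed, 13 ligands, 10 receptors and 6 antagonists. The 8 that did not were Wnt2b, Wnt3, Wnt3a, Wnt7a, Wnt8a, Wnt8b, Dkk1 and Dkk4.

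Wnt proteins are secreted, lipid-modified ligands. A Wnt binds a Frizzled receptor together with a co-receptor, and in the canonical branch this stabilises beta-catenin, which then acts with TCF and LEF factors on target genes, while other branches steer cell polarity and movement. Sfrp proteins carry a Frizzled-like domain and bind Wnts outside the cell, and most Dkk proteins block the Lrp5 and Lrp6 co-receptors. In the adult mouse liver, Wnt2 and Wnt9b from endothelial cells near the central vein maintain the pericentral hepatocytes, which make glutamine from ammonia, whereas in the mouse embryo Wnt5a, Sfrp and Dkk genes are widely expressed in mesenchyme.

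RNA was measured on 7 single-colour arrays. Induced hepatocyte-like cells (iHep) are fibroblasts converted with transcription factors, which in this study are known to be Hnf4a plus 1 of Foxa1, Foxa2 and Foxa3. The 3 iHep arrays are labelled 4α1, 4α2 and 4α3 and are called types 1, 2 and 3, with 1 array per type, and the sources used here do not give the meaning of the last digit, the vectors or the number of clones. The Hepatocyte group is 1 array of primary hepatocytes from adult mouse liver, and the MEF group is 3 arrays of embryonic fibroblasts from embryos of 13.5 days post coitum. All cells had the C57BL/6 background.

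Hepatocyte markers were well above background for 7 to 8 of 9 genes on the iHep arrays, 9 of 9 on the Hepatocyte array and 2 to 3 of 9 on the MEF arrays. Their levels differed more than these counts. The median (log2, 0 being the 75th percentile of the array) was -0.87 to -0.04 on iHep, 8.37 on Hepatocyte and -8.32 to -7.63 on MEF. The factor Hnf4a itself was 7.80 ± 1.24 log2 units higher in iHep than in MEF. Hnf4a was among the introduced factors, and whether its probe read the introduced or the cells' own RNA was not tested. Fibroblast markers were well above background for 10 of 10 genes on every iHep and MEF array and for 9 on the Hepatocyte array. The 75th percentile of signal ran from 608 to 1484, and the probes well above background made up 60.2% to 68.7%. The MEF 2 and MEF 3 arrays differed by less than the noise between repeated spots of 1 probe and were averaged as 1 sample, so n is 3 for iHep, 1 for Hepatocyte and 2 for MEF. The iHep arrays and MEF 1 shared slide 1, MEF 2 and MEF 3 slide 2, and the Hepatocyte array lay alone on slide 3, so for Hepatocyte the slide and the group cannot be told apart.

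A level is log2 of the processed signal minus the 75th percentile of its array, so 0 is that percentile. Probes differ in brightness, so levels are compared between arrays and never between genes. All differences are log2 differences from limma with their standard errors, adjusted by Benjamini-Hochberg over 19131 genes, and a gene was called at an adjusted p under 0.05. The spread of iHep is that between types, and the single Hepatocyte array has no spread of its own and borrows that of iHep and MEF. The p-values thus reflect the spread of these samples alone, which may be technical. In bulk RNA, fewer cells of a type and less RNA per cell cannot be told apart.

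**Figure D1:**
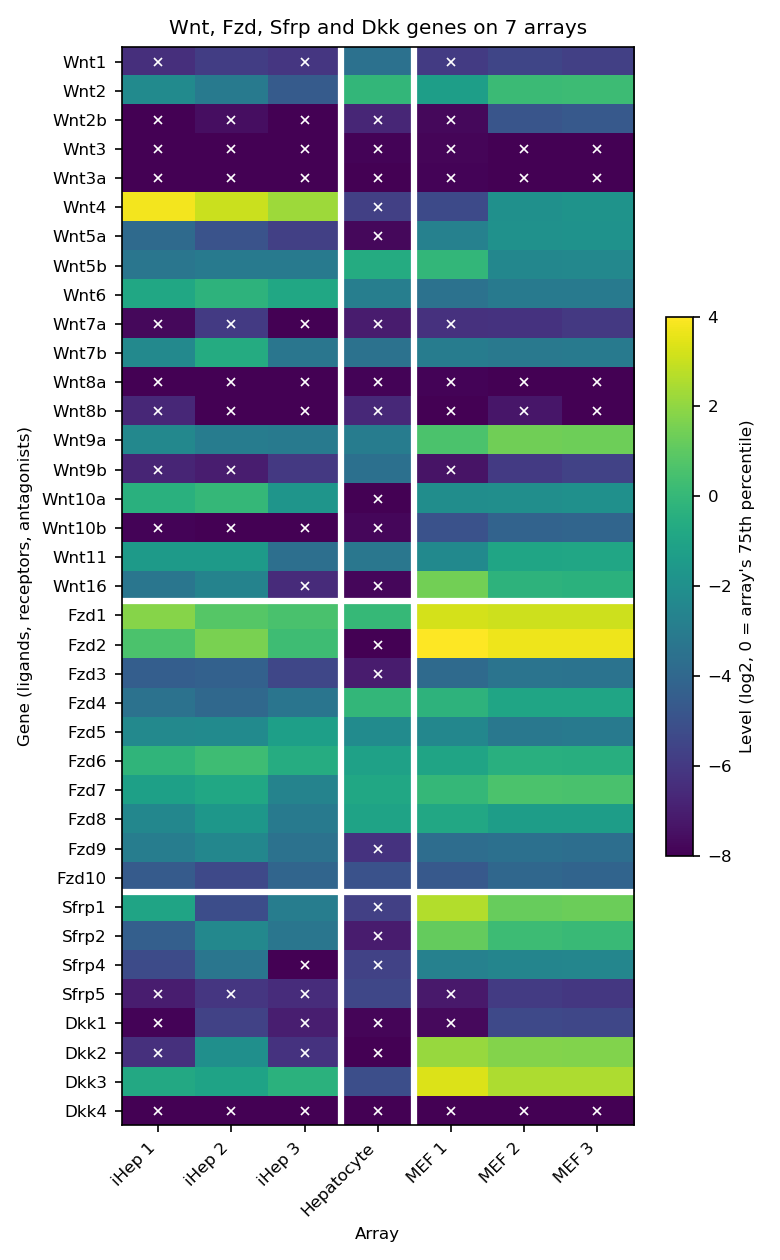
Level of each of the 37 genes (rows, in the order ligands, receptors, antagonists) on each of the 7 arrays (columns), as log2 relative to the 75th percentile of the array. White crosses mark probes not well above background. Colours are to be read along a row. Wnt4 is bright on the 3 iHep arrays, whereas Dkk2, Dkk3, Sfrp1 and Sfrp2 are brightest on the 3 MEF arrays.

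Of the 29 genes tested, 11 were called between iHep and MEF, 2 higher and 9 lower in iHep. Over all genes tested, 23.3% were called, 10.1% higher and 13.3% lower. The median log2 difference was -1.83 over the 29 genes and -0.04 over all genes tested. The 2 that rose were the ligands Wnt4 and Wnt6. The 9 that fell were the ligands Wnt5a, Wnt9a and Wnt10b, the receptors Fzd1, Fzd2 and Fzd4, and the antagonists Sfrp2, Dkk2 and Dkk3. Wnt10b and Dkk2 passed the filter only through the MEF arrays, so the filter favoured a lower call for them. The iHep and MEF arrays did not overlap for 22 of the 29 genes, 5 higher and 17 lower in iHep, against 58.1% of all genes tested, 26% higher and 32.1% lower. The split by role was 2 higher and 3 lower of 13 ligands, 0 higher and 3 lower of 10 receptors, and 0 higher and 3 lower of 6 antagonists. In limma at an unadjusted p under 0.05, 0 receptors and 0 antagonists were higher, and 5 receptors and 4 antagonists were lower.

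Promoter sequence is shown for 4 of these genes, chosen after their values were seen. They are the 2 ligands that rose, the called ligand with the largest fall, Wnt9a, and the antagonist with the largest fall, Dkk2. Each sequence is the 250 bases before the start of a RefSeq promoter (GRCm38.p6), which need not be the start of the gene. It is read 5′ to 3′ on the gene's strand, which is the plus strand for all 4. Capitals mark the GC box GGGCGG on either strand, a site class bound by Sp factors, and the TATA box TATAAA. Where GC boxes overlap, the joined stretch is in capitals. The windows are chr4:137277385-137277634 for Wnt4, chr1:74771642-74771891 for Wnt6, chr11:59306680-59306929 for Wnt9a and chr3:132085042-132085291 for Dkk2. The Wnt6 window lies inside the RefSeq gene, which spans 74754342 to 74785322, and the Wnt9a window runs past the gene start at 59306849.
Wnt4: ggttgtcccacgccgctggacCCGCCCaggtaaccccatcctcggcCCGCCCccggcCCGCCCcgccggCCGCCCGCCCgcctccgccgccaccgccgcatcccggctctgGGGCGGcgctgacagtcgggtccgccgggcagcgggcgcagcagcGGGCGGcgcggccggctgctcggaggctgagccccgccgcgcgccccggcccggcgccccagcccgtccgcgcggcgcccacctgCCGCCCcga
Wnt6: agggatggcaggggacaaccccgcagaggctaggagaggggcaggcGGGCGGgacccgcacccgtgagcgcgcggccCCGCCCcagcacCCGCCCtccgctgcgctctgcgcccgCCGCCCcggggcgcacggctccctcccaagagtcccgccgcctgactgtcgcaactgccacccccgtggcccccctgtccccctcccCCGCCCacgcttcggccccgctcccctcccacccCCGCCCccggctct
Wnt9a: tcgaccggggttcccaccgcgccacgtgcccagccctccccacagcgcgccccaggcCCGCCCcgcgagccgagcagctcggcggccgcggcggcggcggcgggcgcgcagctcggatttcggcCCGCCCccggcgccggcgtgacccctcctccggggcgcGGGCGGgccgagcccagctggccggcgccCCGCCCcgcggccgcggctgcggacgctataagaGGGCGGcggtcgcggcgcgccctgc
Dkk2: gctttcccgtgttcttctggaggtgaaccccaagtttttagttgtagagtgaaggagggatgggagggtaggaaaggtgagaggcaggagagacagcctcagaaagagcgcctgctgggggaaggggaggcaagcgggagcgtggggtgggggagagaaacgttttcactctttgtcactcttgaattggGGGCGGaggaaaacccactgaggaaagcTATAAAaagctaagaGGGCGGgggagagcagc

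The Wnt4 window held 8 GC boxes, the Wnt6 window 6 and the Wnt9a window 5, none of them with TATAAA. The Dkk2 window had 55.6% GC and 7 CpG sites, against 85.2% and 44 in Wnt4, and it was the only 1 of the 4 with TATAAA. Of the 37 genes, 25 had a promoter in the RefSeq table, with 28 windows in all. A GC box was found in 20 of the 28 windows, against 32.74% of all 32851 promoter windows of the same length. The median GC content was 69.4% in these 28 windows and 52.4% over all, with a median of 22 CpG sites against 6. TATAAA was in 4 of 28 windows, against 12.37% of all. The TCF/LEF core CTTTGA was in 4 of 28, against 13.83%, and the forkhead sequences TGTTTAC or TGTTTGC of Foxa factors were in 2 of 28, against 7.294%. The Hnf4a half-site pairs CAAAGTCCA or CAAAGGTCA were in 0 of 28, against 0.8067%. Both strands were searched. CTTTGA reads TCAAAG on the other strand and so shares CAAAG with the Hnf4a sequences. A match describes the letters of the window and not binding. GC boxes stood in the windows of both ligands that rose and also in those of Wnt9a and Dkk2, which fell.

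Wnt4 drives tubule formation in the mouse kidney and is needed for the female reproductive tract. Its level was 3.79, 3.05 and 2.25 on the iHep 1, 2 and 3 arrays, -5.74 on the Hepatocyte array and -5.32, -1.98 and -1.84 on the MEF 1, 2 and 3 arrays. All 3 iHep types lay far above every other array, and Hepatocyte, alone among the 7 arrays, was not well above background for this gene. The difference from MEF was 6.65 ± 1.09 (100.3-fold, adjusted p = 0.0151), and within slide 1, where MEF 1 is the only MEF array, it was 8.35 ± 0.68 (adjusted p = 0.0142). The mean level was 3.03 ± 0.77 in iHep (SD, n = 3) and -3.62 ± 2.41 in MEF (SD, n = 2), so the MEF samples were far apart. Against Hepatocyte, Wnt4 was 437-fold higher in iHep by the fit (adjusted p = 0.00635), which is no bound. The probe lies on chromosome 4 from 136567851 to 136568419 in build mm8, the array's own annotation.

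Wnt6 is made by epithelia of the mouse embryo. Its level was -0.85, -0.22 and -0.86 on iHep 1, 2 and 3, -2.85 on Hepatocyte, and -3.47, -3.12 and -3.06 on MEF 1, 2 and 3. The iHep arrays stood above all others and close to each other. The difference from MEF was 2.63 ± 0.29 (6.21-fold, adjusted p = 0.00521) and that from Hepatocyte 2.20 ± 0.37 (4.60-fold, adjusted p = 0.00747). The second probe gave a difference of 5.10 between iHep and MEF, the same direction with a larger size. Between Hepatocyte and MEF the 2 probes pointed opposite ways, at 0.43 and -1.95, and the gene was not called there (adjusted p = 0.383).

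Wnt10a, a ligand of skin appendages and teeth, is the neighbour of Wnt6 in the RefSeq gene table. Its level was -0.37, -0.03 and -1.72 on iHep 1, 2 and 3, -7.99 on Hepatocyte and -2.13, -2.07 and -1.98 on MEF 1, 2 and 3. Every iHep array lay above every MEF array, but the difference of 1.37 ± 0.54 was not called (adjusted p = 0.135). The types were unlike each other, with type 3 close to the MEF arrays and types 1 and 2 further above them. Wnt10a was at least 33.1-fold higher in iHep than in Hepatocyte (adjusted p = 0.00137) and at least 12.8-fold lower in Hepatocyte than in MEF (adjusted p = 0.00264), a call that was lost with the normexp background (adjusted p = 0.057). Apart from Wnt6 and Wnt10a, 3 other pairs of members are neighbours under 100 kb apart, Wnt9a with Wnt3a, Wnt9b with Wnt3, and Wnt10b with Wnt1. Wnt3a and Wnt3 were not well above background on any array, and Wnt10b and Wnt1 were highest in different groups, Wnt10b in MEF and Wnt1 in Hepatocyte.

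Wnt9a, a ligand of joint formation in the mouse, was at -2.41, -2.98 and -3.12 on iHep 1, 2 and 3, -2.94 on Hepatocyte, and 0.62, 1.42 and 1.36 on MEF 1, 2 and 3. The iHep types lay around the Hepatocyte array and clear of all MEF arrays. The fall in iHep against MEF was -3.84 ± 0.35 (14.4-fold, adjusted p = 0.0032), and that in Hepatocyte against MEF was -3.95 ± 0.47 (adjusted p = 0.00236). Between iHep and Hepatocyte the difference was 0.11 ± 0.44 and was not called (adjusted p = 0.855). The second probe gave -3.02 for iHep and -2.32 for Hepatocyte, both against MEF. The brighter probe lies on chromosome 11 from 59149389 to 59149448 in mm8.

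Wnt10b, which holds back fat cell formation in mice, was below the detection mark on the 3 iHep arrays and on the Hepatocyte array. Its level was -4.98, -4.18 and -4.09 on MEF 1, 2 and 3. It was thus at least 2.82-fold lower in iHep than in MEF (adjusted p = 0.00304), and with the normexp background it was no longer called (adjusted p = 0.0677).

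Wnt5a is the main ligand of the non-canonical branch and of mesenchyme. Its level was -3.84, -4.94 and -5.72 on iHep 1, 2 and 3, -7.76 on Hepatocyte and -2.74, -1.92 and -1.89 on MEF 1, 2 and 3. The groups did not overlap, and the Hepatocyte value was not well above background. The fall in iHep against MEF was -2.51 ± 0.62 (5.71-fold, adjusted p = 0.0439), close to the threshold, and it was not called within slide 1 (-2.10, adjusted p = 0.209). It was not called either with no filter on dim probes (adjusted p = 0.0582), without MEF 1, without MEF 2 and MEF 3, without iHep type 2 and without iHep type 3. In Hepatocyte, Wnt5a was at least 10.8-fold lower than in MEF (adjusted p = 0.00502). With the normexp background this difference was -1.43, less than the fold given.

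Wnt16, a ligand of bone and synovial tissue, was at -3.31, -2.62 and -6.52 on iHep 1, 2 and 3, -7.78 on Hepatocyte and 1.43, -0.25 and -0.33 on MEF 1, 2 and 3. It was not well above background on iHep 3 or on Hepatocyte, and no iHep array reached a MEF array. The difference in iHep against MEF was large but spread widely between types, -4.72 ± 1.31, and was not called (adjusted p = 0.0604). It passed in 7 of 17 alternatives, with 3 separate MEF samples at adjusted p = 0.0252. In Hepatocyte it was at least 80.3-fold lower than in MEF (adjusted p = 0.0138), a call that was lost without MEF 1. With the normexp background this difference was -3.83, less than the fold given.

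Wnt2 and Wnt9b are the endothelial ligands of the pericentral liver. Wnt2 was at -2.24, -3.07 and -4.54 on iHep 1, 2 and 3, -0.07 on Hepatocyte and -1.29, 0.19 and 0.21 on MEF 1, 2 and 3. The iHep arrays were the lowest, and the Hepatocyte array fell inside the range of the MEF arrays. The difference of iHep from MEF was -2.74 ± 0.81 (adjusted p = 0.0713) and from Hepatocyte -3.21 ± 1.03 (adjusted p = 0.0521), neither called. Wnt2 passed in 4 of 17 alternatives against MEF and in 8 of 15 against Hepatocyte. Wnt9b was at -6.77, -7.04 and -6.01 on iHep 1, 2 and 3, -3.59 on Hepatocyte and -7.35, -5.95 and -5.63 on MEF 1, 2 and 3. Only iHep 3, Hepatocyte, MEF 2 and MEF 3 were well above background, and the Hepatocyte array stood above all others, 2.98 ± 0.77 over MEF (adjusted p = 0.0255), a call that was lost without MEF 1 (adjusted p = 0.0584). The fitted difference of iHep from Hepatocyte was -3.02 ± 0.72 (adjusted p = 0.0226), with 1 of 3 iHep arrays well above background, and this call was lost without iHep type 1 and without iHep type 2, with the highest adjusted p at 0.0589.

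Markers of endothelial cells were measured on the same arrays. All 10 endothelial markers were well above background on the Hepatocyte array, against 2 to 4 of 10 on the iHep arrays and 5 to 7 of 10 on the MEF arrays. Their summed level was 3.91 on Hepatocyte, between -1.79 and 1.23 on iHep and between 0.40 and 1.24 on MEF. Pecam1 and Cdh5, which define endothelium, were at -3.04 and 0.02 on Hepatocyte and at or below -7.68 on all iHep arrays. On MEF they were not well above background either, with means of -8.16 and -7.69. Lyve1 was higher on iHep than on MEF, at 1.14, -3.09 and -2.46 on iHep 1, 2 and 3, -2.36 on Hepatocyte and -7.13 in the MEF mean. Markers of Kupffer cells were also well above background for 10 of 10 genes on Hepatocyte, against 3 to 4 on iHep and 8 to 9 on MEF. Their part in the Hepatocyte values was not tested.

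Wnt1, a ligand of the embryonic midbrain, was at -6.40, -5.84 and -6.09 on iHep 1, 2 and 3, -3.51 on Hepatocyte and -5.92, -5.50 and -5.72 on MEF 1, 2 and 3. The iHep and MEF arrays overlapped near background, with iHep 2, MEF 2 and MEF 3 well above it, and the Hepatocyte array was higher. The fitted difference of Hepatocyte from MEF was 2.25 ± 0.33 (adjusted p = 0.00459) and that of iHep from Hepatocyte -2.60 ± 0.31 (adjusted p = 0.0029), both partly from values near background. Wnt5b, Wnt7b and Wnt11 were well above background on all 7 arrays and were called in none of the 3 comparisons, with differences of -1.91, 0.96 and -0.59 for iHep against MEF. Of these, Wnt5b passed within slide 1 (-3.08 ± 0.25, adjusted p = 0.0137), where MEF 1 had -0.07 against -2.43 and -2.39 on MEF 2 and 3. Of the 6 ligands not tested, Wnt2b and Wnt7a were well above background on MEF 2 and MEF 3 alone, and Wnt3, Wnt3a, Wnt8a and Wnt8b on no array.

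**Figure D2:**
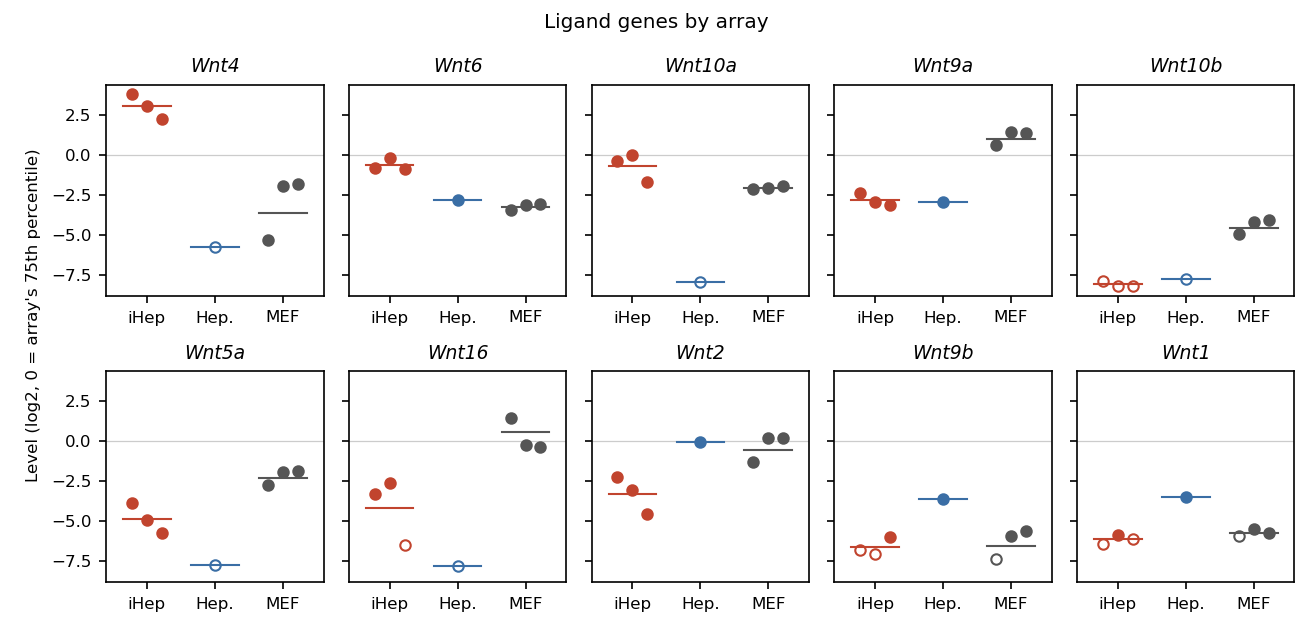
Level of 10 ligand genes (log2 relative to the 75th percentile of the array) in iHep (3 types, red), Hepatocyte (Hep., 1 array, blue) and MEF (3 arrays, grey). Filled points are well above background, open points are not, and bars are group means with MEF 2 and MEF 3 counted once. Wnt4 and Wnt6 are highest in iHep, Wnt9a is low in iHep and Hepatocyte, and Wnt9b and Wnt1 are highest on the Hepatocyte array.

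All 10 Frizzled receptors were well above background on every iHep and MEF array, and 7 of 10 on the Hepatocyte array. Fzd1 was at 1.80, 0.84 and 0.57 on iHep 1, 2 and 3, 0.05 on Hepatocyte and 3.25, 3.07 and 3.08 on MEF 1, 2 and 3. The MEF arrays were tightly grouped above all others. Fzd1 fell in iHep (-2.09 ± 0.41, 4.26-fold, adjusted p = 0.0241) and in Hepatocyte (-3.11 ± 0.55, adjusted p = 0.00806), both against MEF. The iHep call was lost within slide 1 (-2.18, adjusted p = 0.114), without MEF 1, without MEF 2 and MEF 3, and without iHep type 2.

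Fzd2, a receptor for Wnt5a, was at 0.61, 1.58 and 0.29 on iHep 1, 2 and 3, -7.96 on Hepatocyte and 4.45, 3.68 and 3.71 on MEF 1, 2 and 3. The 3 groups were fully apart, with iHep between the other two. Fzd2 was 9.47-fold lower in iHep than in MEF (-3.24 ± 0.47, adjusted p = 0.011), with -3.02 at its second probe. In Hepatocyte it was not well above background and at least 909-fold lower than in MEF (adjusted p = 0.00031), and iHep was at least 95.9-fold higher than Hepatocyte (adjusted p = 0.0006). For Hepatocyte against MEF the second probe gave -7.66 and the normexp background -7.43, against -12.03 in the main fit. Both are smaller than the 909-fold, which holds for the brighter probe and the main background alone. The lowest difference of iHep from Hepatocyte over the alternatives was 4.22, also smaller than its fold. The iHep call against MEF was lost within slide 1 (-3.62, adjusted p = 0.0503), without MEF 1, and without MEF 2 and MEF 3. The probe lies on chromosome 11 from 102422389 to 102422448 in mm8.

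Fzd4, which with Lrp5 and Tspan12 receives the ligand norrin in blood vessels, had another order. It was at -3.46, -3.96 and -3.35 on iHep 1, 2 and 3, -0.03 on Hepatocyte and -0.22, -0.97 and -0.93 on MEF 1, 2 and 3. The iHep types lay together, well below the Hepatocyte and MEF arrays. Fzd4 was 8.03-fold lower in iHep than in MEF (-3.01 ± 0.33, adjusted p = 0.00509) and 11.8-fold lower than in Hepatocyte (-3.56 ± 0.41, adjusted p = 0.00257). Hepatocyte and MEF differed by 0.55 ± 0.44, which was not called (adjusted p = 0.332). Endothelial markers well above background, given above, were likewise fewest on the iHep arrays, while Pecam1 and Cdh5 were not well above background on iHep or MEF. The part of endothelial RNA in the Fzd4 values was not tested.

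Fzd9 was at -2.93, -2.43 and -3.45 on iHep 1, 2 and 3, -6.26 on Hepatocyte, where it was not well above background, and -3.73, -3.55 and -3.67 on MEF 1, 2 and 3. It was called for Hepatocyte, at least 4.25-fold lower than MEF (adjusted p = 0.0079), but not for iHep against MEF (0.73 ± 0.34, adjusted p = 0.184). Fzd3, a receptor of axon guidance and hair polarity, was at -4.44, -4.26 and -5.42 on iHep 1, 2 and 3, -7.08 on Hepatocyte and -3.86, -3.40 and -3.42 on MEF 1, 2 and 3. It too was not well above background on the Hepatocyte array and at least 4.35-fold lower there than in MEF (adjusted p = 0.00627). Under the normexp background the Hepatocyte calls of Fzd3 and Fzd9 against MEF were lost, at adjusted p = 0.143 and 0.145.

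Fzd7 was at -1.18, -0.83 and -2.62 on iHep 1, 2 and 3, -0.86 on Hepatocyte and -0.03, 0.62 and 0.57 on MEF 1, 2 and 3. Its brighter probe gave -1.83 ± 0.60 for iHep against MEF (adjusted p = 0.0894), and its second probe gave -3.33. It was called in 4 of 17 alternatives, among them the mean over probes (-2.58, adjusted p = 0.02) and 3 separate MEF samples (-1.93, adjusted p = 0.0277). With the mean over probes Fzd7 also passed for Hepatocyte against MEF (-3.16, adjusted p = 0.0121), where the main result was not called. Fzd6, a polarity receptor, was at -0.17, 0.27 and -0.57 on iHep 1, 2 and 3, -1.14 on Hepatocyte and -0.98, -0.41 and -0.46 on MEF 1, 2 and 3, and was called nowhere. Fzd5, Fzd8 and Fzd10 were not called in any comparison either, with differences of 0.85, -1.34 and -0.32 for iHep against MEF, and Fzd8 passed with the mean over probes (-2.05, adjusted p = 0.0271). The Fzd5 probes pointed opposite ways, at 0.85 and -0.26 for iHep against MEF. The Fzd10 probes gave -0.63 and -4.79 for Hepatocyte against MEF, and their mean passed there (-2.71, adjusted p = 0.0477).

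Among the antagonists, Dkk3 and Dkk2 were far apart between groups. Dkk3, a divergent Dickkopf, was at -0.75, -1.03 and -0.32 on iHep 1, 2 and 3, -5.09 on Hepatocyte and 3.36, 2.50 and 2.54 on MEF 1, 2 and 3. The 3 groups were apart and the iHep types close together. Dkk3 was 12.5-fold lower in iHep than in MEF (-3.64 ± 0.36, adjusted p = 0.00388), 262-fold lower in Hepatocyte than in MEF (-8.03 ± 0.48, adjusted p = 0.000395) and 21.0-fold higher in iHep than in Hepatocyte (adjusted p = 0.00179).

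Dkk2, an antagonist or weak agonist at Lrp6, was at -6.36, -2.02 and -6.22 on iHep 1, 2 and 3, -8.04 on Hepatocyte and 2.17, 1.76 and 1.73 on MEF 1, 2 and 3. It was well above background on iHep 2 alone among the iHep arrays. The fitted difference of iHep from MEF was -6.82 ± 1.43 (adjusted p = 0.0291), which rests partly on values near background and is no bound. Dkk2 was at least 210.03-fold lower in Hepatocyte than in MEF (adjusted p = 0.0106). The smallest fitted difference there over the alternatives was -5.43, less than this fold. The iHep call was lost within slide 1 (-7.04, adjusted p = 0.131), without MEF 1, without MEF 2 and MEF 3, without iHep type 1 and without iHep type 3.

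Sfrp2 was at -4.37, -2.40 and -3.31 on iHep 1, 2 and 3, -7.10 on Hepatocyte and 1.15, 0.20 and 0.11 on MEF 1, 2 and 3. It fell in every iHep type, 16.1-fold in the mean against MEF (-4.01 ± 0.66, adjusted p = 0.015), and was at least 85.2-fold lower in Hepatocyte than in MEF (adjusted p = 0.00208). With the normexp background the difference of Hepatocyte from MEF was -3.87, less than this fold. The iHep call was lost within slide 1 (-4.51, adjusted p = 0.0621), without MEF 1, and without MEF 2 and MEF 3.

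Sfrp1 was called in Hepatocyte but not in iHep. It was at -0.99, -5.17 and -2.90 on iHep 1, 2 and 3, -5.74 on Hepatocyte and 2.64, 1.21 and 1.28 on MEF 1, 2 and 3. The mean difference of iHep from MEF was -4.96 ± 1.28, and its adjusted p of 0.0501 lay just past the threshold. With 3 separate MEF samples it passed (-4.73, adjusted p = 0.0185). In Hepatocyte, Sfrp1 was 206-fold lower than in MEF by the fit (adjusted p = 0.0167), a call lost without MEF 1. Its Hepatocyte level was not well above background, so this fold is no bound. Sfrp4 and Sfrp5 were called nowhere, with -2.89 ± 1.38 and 0.07 ± 0.47 for iHep against MEF. Dkk1, a target of beta-catenin as well as an antagonist, was well above background on iHep 2, MEF 2 and MEF 3 and was not tested, and Dkk4 was above background on no array.

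The summed level of the 10 fibroblast markers was 5.75 to 7.35 on the iHep arrays, 3.58 on Hepatocyte and 9.78 to 9.91 on MEF. The group means of Dkk3, Sfrp2, Sfrp1 and Dkk2 had the same order. In limma, Sfrp1 and Dkk2 were not called between iHep and Hepatocyte (adjusted p = 0.216 and 0.202). The marker Lum was lower in iHep (mean -3.92) than on Hepatocyte (-1.09). The part of remaining fibroblast RNA in the iHep values of the antagonist genes was not tested.

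**Figure D3:**
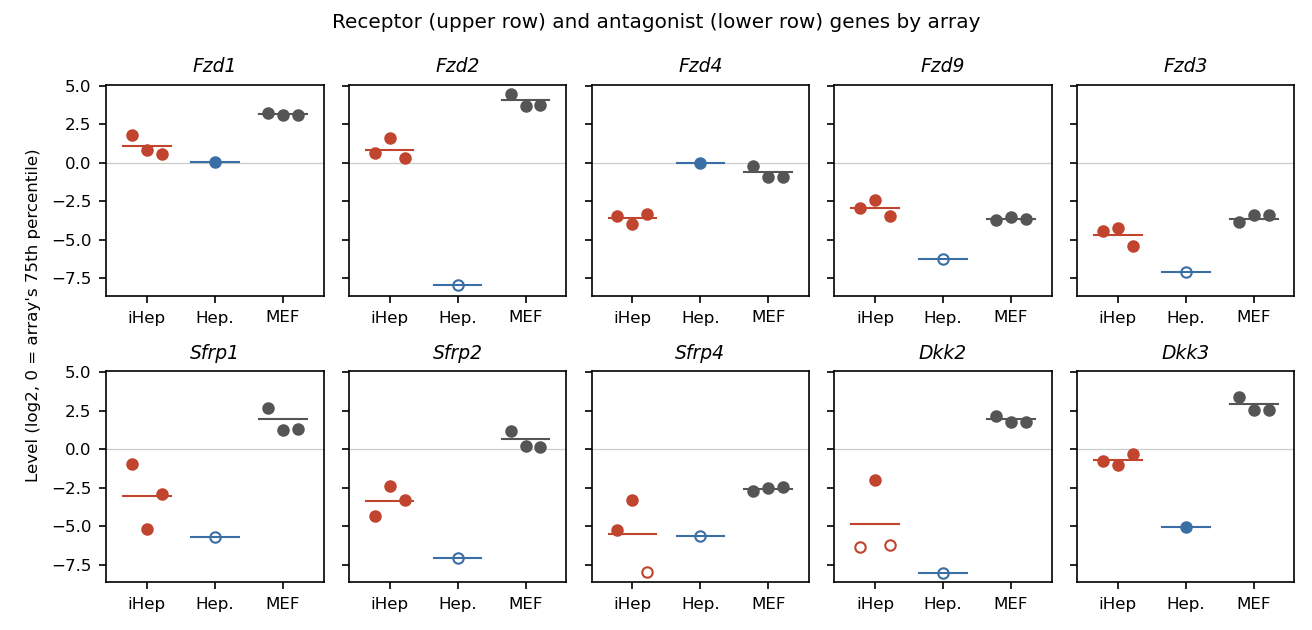
Level of 5 receptor genes (upper row) and 5 antagonist genes (lower row), as log2 relative to the 75th percentile of the array, in iHep (3 types, red), Hepatocyte (Hep., 1 array, blue) and MEF (3 arrays, grey). Filled points are well above background, open points are not, and bars are group means. Fzd4 is lowest in iHep, whereas Fzd1, Fzd2, Sfrp1, Sfrp2, Dkk2 and Dkk3 are highest in MEF.

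Between Hepatocyte and MEF, 15 of the 29 genes were called, 2 higher (Wnt1, Wnt9b) and 13 lower. Over all genes tested 53.5% were called, 28.4% higher and 25.1% lower, so the share of 51.7% among the 29 was near the background while its direction was mostly down. The Hepatocyte array lay outside the MEF arrays for 26 of the 29 genes, 6 above and 20 below, against 93.2% of all genes tested, 49.6% above and 43.6% below. The 13 were Wnt5a, Wnt9a, Wnt10a, Wnt10b, Wnt16, Fzd1, Fzd2, Fzd3, Fzd9, Sfrp1, Sfrp2, Dkk2 and Dkk3. Wnt1 and Wnt9b passed the filter only through the Hepatocyte array, and Wnt10b, Wnt16 and Dkk2 only through the MEF arrays. For these genes the filter favoured the direction called. The medians were -2.12 over the 29 genes and 0.14 over all genes tested, and by role -1.62 for ligands, -0.89 for receptors and -7.72 for antagonists. The medians of iHep against MEF were -0.59, -1.21 and -3.83 in the same order of roles. These comparisons share the MEF arrays.

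Between iHep and Hepatocyte, 9 genes were higher in iHep (Wnt4, Wnt5a, Wnt6, Wnt10a, Fzd2, Fzd3, Fzd9, Sfrp2, Dkk3) and 3 lower (Wnt1, Wnt9b, Fzd4). Wnt1 and Wnt9b passed the filter only through the Hepatocyte array, so the filter favoured a lower call for them in iHep. The background was 49.3%, with 22.1% higher and 27.1% lower, and the medians were 1.02 over the 29 genes and -0.17 over all. Of these 12 calls, 8 held under all 15 alternatives tried, Wnt1, Wnt4, Wnt6, Wnt10a, Fzd2, Fzd4, Fzd9 and Dkk3. Sfrp2 was at least 5.28-fold and Fzd3 at least 2.07-fold higher in iHep, and both calls were lost with the normexp background (adjusted p = 0.231 and 0.806). Wnt5a, at least 1.90-fold higher, was lost under 4 alternatives, with the highest adjusted p at 0.698.

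**Figure D4:**
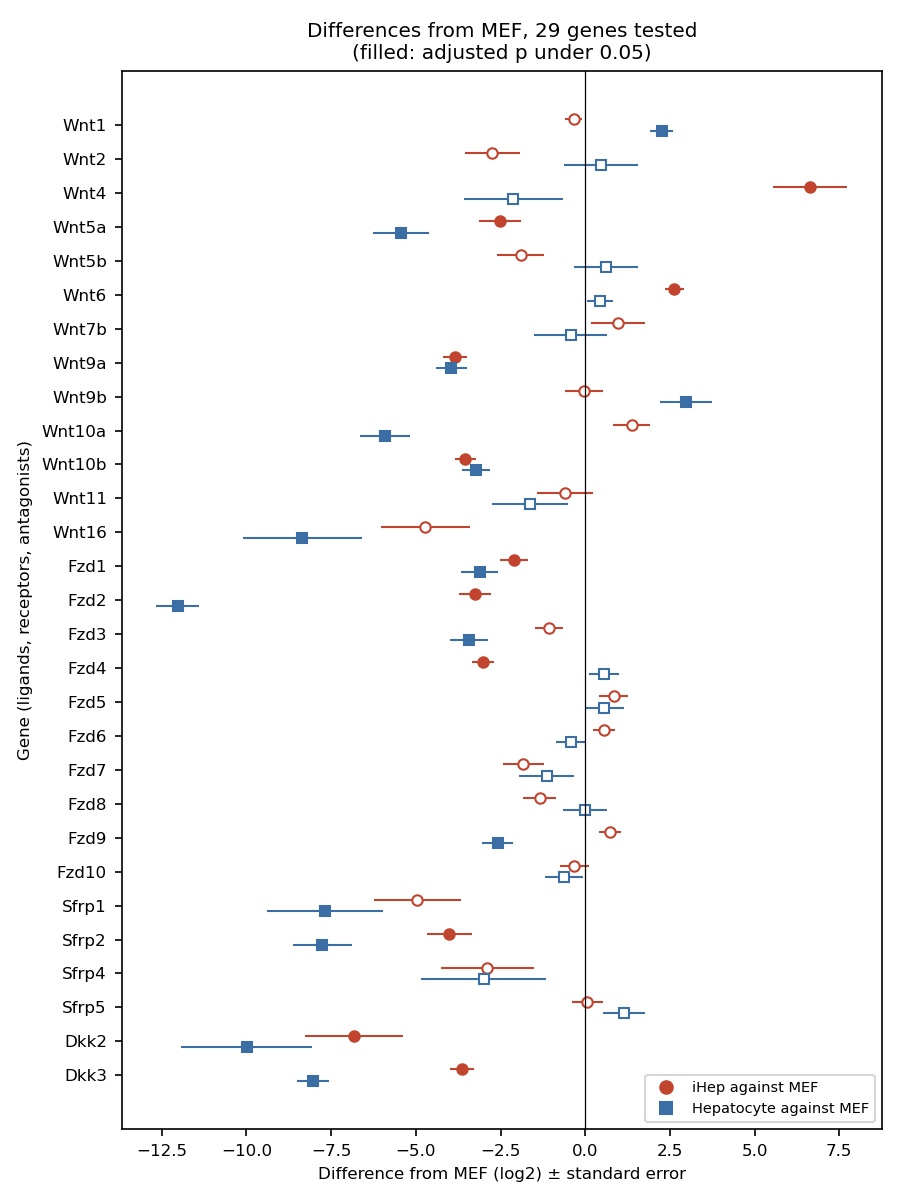
Log2 difference from MEF with its standard error for the 29 genes tested, for iHep (red circles) and Hepatocyte (blue squares). Filled symbols have an adjusted p under 0.05. Wnt4 lies at 6.65 in iHep, Fzd2 at -12.03 in Hepatocyte, and the antagonists lie mostly to the left of 0 in both. Differences of probes not well above background in a group depend on that background and are not bounds.

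The iHep types were described side by side, since each has 1 array and differences among them were not tested. Type 3 had the lowest level of the types for 18 of the 29 genes, against 40.8% of all genes tested, and type 2 the highest for 17 of 29, against 27.7% of all. With each type as its own group, where the spread came from the MEF samples alone, 2 genes were higher and 8 lower than MEF in type 1, 3 higher and 10 lower in type 2, and 1 higher and 16 lower in type 3. The backgrounds of called genes were 12.9%, 14.8% and 17.8%. Wnt6 was higher in each type, at 2.43, 3.06 and 2.42 over MEF for types 1, 2 and 3. Wnt10a was 1.70, 2.05 and 0.35 over MEF in types 1, 2 and 3, and Wnt7b was at 0.72, 2.43 and -0.26. Each type is 1 array, so these counts and differences carry no spread within a type.

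Sfrp1, well above background in all types, ranged over 4.18 log2 units among them. The ranges of 4.73 for Sfrp4, 4.33 for Dkk2 and 3.90 for Wnt16 include values not well above background, in type 3 for each and also in type 1 for Dkk2. The 4 genes thus cannot be ranked by their range. Sfrp4 was at -5.25, -3.28 and -8.01 on iHep 1, 2 and 3, -5.62 on Hepatocyte and -2.73, -2.54 and -2.48 on MEF 1, 2 and 3. Sfrp1 was lowest in type 2, whereas Sfrp4 and Wnt16 were lowest in type 3 and Dkk2 was high in type 2 alone, so no single type was low for all. The summed fibroblast marker level was 7.27, 7.35 and 5.75 on iHep 1, 2 and 3, lowest in type 3, and its part in the type 3 values was not tested.

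Other genes of the pathway were read from 9 lists, and no list was tested as a set. The background of iHep against MEF was 10.1% higher and 13.3% lower over all genes tested. Of 12 co-receptors and alternative receptors tested, 0 rose and 6 fell, with a list median of -1.29. The falls included -4.24 for Mcam, -3.49 for the glypican Gpc4, -2.61 for Adgra2, which serves Wnt7 signalling in brain vessels, and -1.16 for Ryk, a non-canonical Wnt receptor. In limma at an unadjusted p under 0.05, 1 was higher. The main co-receptors were not called, Lrp5 at -0.04, -0.18 and 0.68 on iHep 1, 2 and 3, 1.26 on Hepatocyte and 0.17, 0.62 and 0.55 on MEF 1, 2 and 3, and Lrp6 at 0.90 ± 0.37 in iHep against MEF (adjusted p = 0.144). Ror2, a Wnt5a receptor, was not called in any comparison.

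Both genes dedicated to Wnt secretion were called, in opposite directions. Porcn, the enzyme that attaches the lipid, was at 0.99, 0.97 and 0.69 on iHep 1, 2 and 3, -1.11 on Hepatocyte and -0.41, -1.15 and -1.15 on MEF 1, 2 and 3, a rise of 1.67 ± 0.28 in iHep over MEF (adjusted p = 0.0166). Wls, the carrier that takes Wnts to the cell surface, was at 2.79, 2.95 and 2.43 on iHep 1, 2 and 3, -2.89 on Hepatocyte and 4.73, 4.88 and 4.82 on MEF 1, 2 and 3. It fell in iHep (-2.06 ± 0.23, adjusted p = 0.00521) and in Hepatocyte (-7.68 ± 0.30), both against MEF. The list had 1 higher and 1 lower of 6 tested, against 10.1% higher and 13.3% lower of all genes tested.

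Of 9 other secreted antagonists and their receptors, 1 rose and 2 fell in iHep, against 10.1% higher and 13.3% lower of all genes tested. Wif1, which binds Wnts directly, was at 2.52, 1.11 and -0.17 on iHep 1, 2 and 3, -7.76 on Hepatocyte and -3.93, -3.68 and -3.73 on MEF 1, 2 and 3. It rose 31.4-fold in iHep over MEF (4.97 ± 0.79, adjusted p = 0.014), with type 1 highest and type 3 lowest. Sostdc1 was at least 5.63-fold lower in iHep, and Kremen1, a Dkk receptor, was lower by call (-1.43). Frzb, a relative of the Sfrp genes, was not called in iHep (-0.71 ± 0.76, adjusted p = 0.537).

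R-spondins raise Wnt signalling by clearing the Rnf43 and Znrf3 ubiquitin ligases through Lgr receptors. Of 11 genes of this group, 2 rose and 3 fell in iHep, against 10.1% higher and 13.3% lower of all genes tested. Lgr6, well above background on 2 of 3 MEF arrays, rose by 4.27 ± 0.57 and Lgr4 by 2.22 ± 0.35, whereas Rspo2 (-6.72 ± 0.96, well above background on 2 of 3 iHep arrays) and Rspo1 (-3.25 ± 0.51) fell. Ndp, which encodes norrin, was at least 6.08-fold lower in iHep. Lgr5 was at -0.58, 0.95 and -8.28 on iHep 1, 2 and 3, -1.29 on Hepatocyte and 0.81, -0.77 and -0.66 on MEF 1, 2 and 3. Type 3 was not well above background for Lgr5, the other 2 types lay in the range of the MEF arrays or close to it, and the gene was not called (-2.69 ± 2.89, adjusted p = 0.542).

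Inside the cell, 0 of 41 pathway genes rose and 7 fell in iHep, against 10.1% higher and 13.3% lower of all genes tested. The list median was -0.40, and in limma 0 were higher and 15 lower at an unadjusted p under 0.05. The feedback inhibitors Dact1 (-4.18), Nkd1 (-4.06) and Nkd2 (-3.55) fell. Ctnnb1, which encodes beta-catenin, was at 4.99, 5.04 and 4.83 on iHep 1, 2 and 3, 3.45 on Hepatocyte and 4.88, 4.70 and 4.67 on MEF 1, 2 and 3, and iHep and MEF were not called apart (0.17 ± 0.18, adjusted p = 0.536). Axin2, the standard readout of beta-catenin activity, was at -3.63, -2.56 and -6.52 on iHep 1, 2 and 3, -1.61 on Hepatocyte and -2.73, -2.19 and -2.31 on MEF 1, 2 and 3. It was not called (-1.74 ± 1.20, adjusted p = 0.343). Type 3 was again the lowest, but its value lay below the faintest level well above background on that array (-6.16). The fitted difference rests partly on it. Of 27 genes of the polarity and calcium branches, 1 rose, Celsr1 by 4.84 ± 0.65, and 8 fell, among them the giant cadherins Dchs1 (-5.66) and Fat4 (-4.52) and the polarity gene Prickle2 (-3.26).

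Of 28 general beta-catenin target genes tested, 3 rose and 5 fell in iHep. Over all genes tested 10.1% were higher and 13.3% lower, so these counts were near the background. The growth regulator Myc, Tnfrsf19 and the transcription factor Sox9 rose by 2.82, 2.20 and 1.50, and Nrcam (-5.23, well above background on 2 of 3 iHep arrays), Ephb2 (-4.76) and Nkd1 (-4.06) fell. Between Hepatocyte and MEF the same list had 4 higher and 14 lower, where 28.4% of all genes tested were higher and 25.1% lower.

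Of 18 pericentral genes that depend on Wnt in adult liver, 3 rose and 2 fell in iHep against MEF, beside 10.1% and 13.3% of all genes tested. In Hepatocyte against MEF 13 rose and 1 fell, beside 28.4% and 25.1% of all genes tested. Glul, glutamine synthetase, was at 5.46, 5.18 and 5.48 on iHep 1, 2 and 3, 4.78 on Hepatocyte and 0.44, 0.67 and 0.64 on MEF 1, 2 and 3. It rose 28.3-fold in iHep over MEF (4.82 ± 0.20, adjusted p = 0.000581). All iHep types lay above the Hepatocyte array, by 0.59 ± 0.25 in the mean, which was not called (adjusted p = 0.109). Cyp27a1 rose by 5.90 ± 0.35, and the ammonium transporter Rhbg was at least 7.18-fold higher in iHep than in MEF. Slc1a2 was at least 3.08-fold lower and Oat also fell in iHep (adjusted p = 0.0239). Of 11 periportal genes, 2 rose (Cdh1, at least 2082-fold, and Gls2 by 2.04) and 1 fell (Ass1, -4.23) in iHep against MEF, beside the same 10.1% and 13.3%. In Hepatocyte against MEF 11 of 11 rose, beside the same 28.4%. No zonal direction was tested between the lists.

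**Figure D5:**
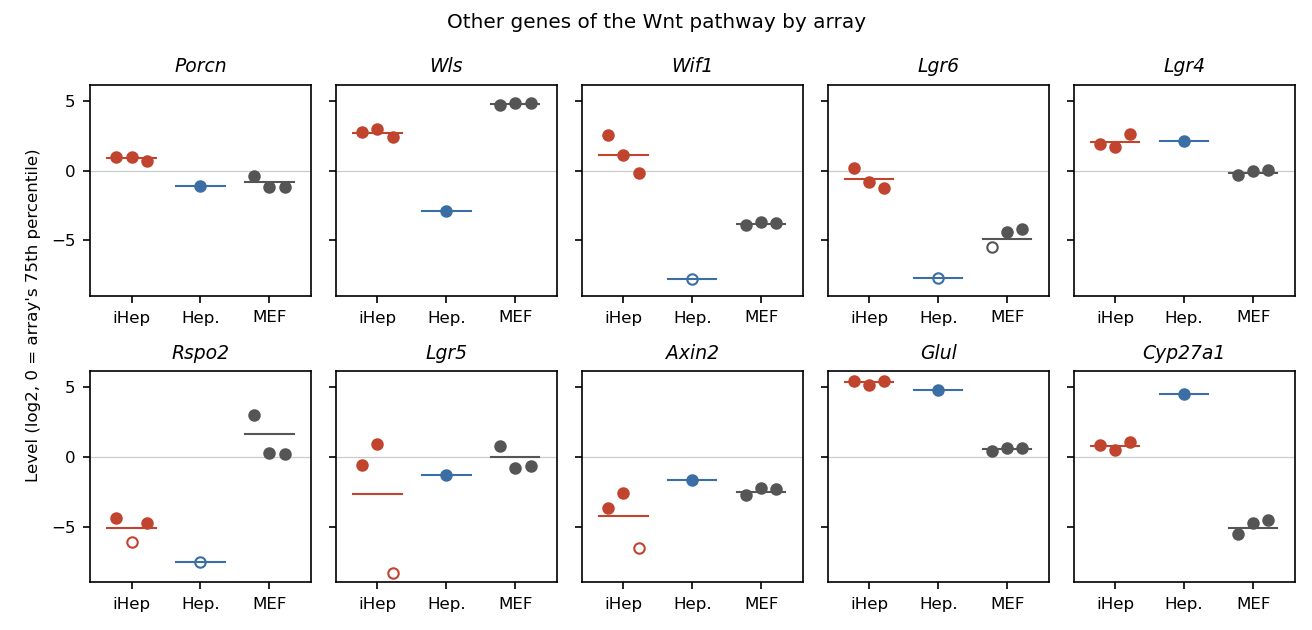
Level of 10 further pathway genes (log2 relative to the 75th percentile of the array) in iHep (3 types, red), Hepatocyte (Hep., 1 array, blue) and MEF (3 arrays, grey). Filled points are well above background, open points are not, and bars are group means. Porcn, Wif1, Lgr6 and Glul are higher in iHep than in MEF, and Wls and Rspo2 are lower. Lgr5 and Axin2 are low and not well above background on the iHep 3 array.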

How the data were processed

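Cy3-labelled RNA of 7 samples was read on single-colour Agilent arrays, per the labels. Feature Extraction 9.5.1.1 produced the spot values per the file headers, with background subtracted, and the processed signal of each spot was deposited as an intensity on a linear scale, unscaled between arrays. The deposited mean and background intensity values served 1 alternative, and the deposited 0 or 1 flags (unit other) gave detection and outlier marks. A further table of processed intensity values by the authors, normalized in a way not given in the sources used here, with a median of 66.4 in every column and r of 0.9988 to 0.9999 with its own arrays, served as an alternative.

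Outlier spots were left out, repeated spots averaged, and log2 signal was set relative to the 75th percentile of its array. The brightest probe stood for a gene. MEF 2 and MEF 3 differed by 0.53 to 0.82 times what repeated spots predict (MEF 1 and MEF 2 by 3.12 to 3.89 times) and were averaged, which leaves MEF n = 2. The 3 groups entered 1 limma fit (limma 3.58.1, R 4.3.3), with Benjamini-Hochberg adjustment over 19131 genes, and the fit was tested on simulated data. "At least N-fold" is given where none of the dimmer group's arrays had the probe well above background. The dimmer level was then replaced, array by array, by the faintest level still well above background if that was higher. Some probes not well above background lay above that level, such as Thy1 at -5.55 and Sfrp4 at -5.62 on Hepatocyte, against -5.76. Such folds depend on that level and on the background method and are not strict bounds. With the normexp background several fitted differences were smaller than the fold given. For Wnt4 and Sfrp1 on Hepatocyte the measured level was the higher, so their fitted folds are given and are no bounds. Where only some of its arrays had the probe above background, no fold is given. Every member is accounted for. Arrays are given for members called in any comparison or above level 0 on any array, and non-members by a rule of the 3 largest changes per list and direction plus 12 fixed genes. The members, lists and tests were chosen with earlier results of these data known. Positions are in mm8, whose exon annotation was not used here. Alternatives were another background, scaling, probe summary, filter, MEF count, slide and replicate handling, and each sample left out. The replicate numbers were not used as pairs in the main fit. The deviations of same-numbered MEF and iHep arrays correlated at 0.03, -0.02 and -0.0002. With 1 array per type, and MEF 2 and MEF 3 alike, these values cannot show or exclude a pairing. The number of arrays limits the precision.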

Additional observations from a re-analysis of the deposited data

Results flagged for a closer look

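4 genes lay on opposite sides of every MEF array in iHep and in Hepatocyte. Opposite directions from MEF were not tested as such, and for each gene 1 of the 2 differences from MEF was not called, that of Hepatocyte for Wnt4 and Fzd4 (adjusted p = 0.270 and 0.332) and that of iHep for Wnt10a and Fzd9 (adjusted p = 0.135 and 0.184). Wnt4 was above all MEF arrays on the 3 iHep arrays and below them on the Hepatocyte array, and the fitted difference of iHep from Hepatocyte was 8.77 log2 units (adjusted p = 0.00635). Wnt10a lay likewise, with a fitted difference of 7.28 (adjusted p = 0.00137), and so did Fzd9, with 3.32 (adjusted p = 0.0035). Fzd4 lay the other way round, below all MEF arrays in iHep and above them in Hepatocyte, with a difference of -3.56 (adjusted p = 0.00257). These limma contrasts test iHep against Hepatocyte directly. The Hepatocyte group is 1 array, and the Hepatocyte levels of Wnt4, Wnt10a and Fzd9 were not well above background, so their fitted differences are no bounds. Over the faintest level well above background, Wnt10a was at least 33.1-fold and Fzd9 at least 7.05-fold higher in iHep than in Hepatocyte. These folds depend on that level and are not strict bounds. For Wnt4 no such fold is given. Its Hepatocyte level of -5.74 already lay above the faintest level still well above background (-5.76), so its 437-fold is the fitted difference. Groups of 3 arrays or fewer could not be searched for outlying samples.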

How the results depend on the processing

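No member changed direction with a call under any alternative. Of the 11 calls of iHep against MEF, 5 (Wnt4, Wnt6, Wnt9a, Fzd4, Dkk3) held under all 17 alternatives, of the 15 of Hepatocyte against MEF 8 held under all 15, and of the 12 of iHep against Hepatocyte 8 did. The 9 genes lower in iHep than in MEF became 14 with 3 separate MEF samples, 15 with each type as its own group, 5 within slide 1, and 4 to 9 with 1 sample left out, where 4 was without MEF 1 and 5 without MEF 2 and MEF 3. With each type as its own group, 14 genes were higher and 5 lower in iHep than in Hepatocyte. For fewer MEF samples and within slide 1 the smaller counts come with fewer samples, and for the other settings the cause was not tested. The replicate number as a block lost 0 and gained 2 of the calls of iHep against MEF, and the labels do not say whether same-numbered samples are paired. A random block for the slide (correlation 0.113) lost 0 and gained 4. The normexp background lost 4 calls of Hepatocyte against MEF (1 gene of which, Wnt10b, was also lost in iHep) and 3 of iHep against Hepatocyte. Quantile normalization moved the median of all genes between Hepatocyte and MEF from 0.14 to 0.00, and lost 0 calls. Where 1 MEF sample was left, its spread was taken from the iHep samples. Signal over background limits what can be said of the members near background.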
